A study of Mus musculus and Canis lupus familiaris and Equus caballus with 9 samples.

Results

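The 10 mouse Cacna1 genes encode the pore subunits of voltage-gated calcium channels. They were taken as a whole gene family, but the family was chosen with earlier results of these data known. All 10 were found by symbol among the 21900 protein-coding genes of the mouse RefSeq table. They were read against NRSF (also called REST) binding in RAW264.7, an established BALB/c mouse macrophage line at passages 13 to 15, fixed with 1% formaldehyde. The mouse arm comprised 2 samples immunoprecipitated with a monoclonal NRSF antibody and 1 input DNA sample without antibody. Dog ML2 leukemia cells and horse E.Derm skin fibroblasts, the other cells of the series, were not used, because the genes examined are those of the mouse. The labels describe no treatment or genetic change. A cell line can carry chromosomes in abnormal copy number, which was not examined. The file holds no expression values, so the macrophage label could not be checked against marker genes.

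A voltage-gated calcium channel opens when the membrane depolarises and lets calcium into the cell. The pore subunit forms the channel and sets its class: L type channels of the Cav1 family mostly open at strong depolarisation and drive muscle contraction, hormone release and transcription; P/Q, N and R types of the Cav2 family trigger transmitter release at synapses; T types of the Cav3 family open near the resting potential and shape rhythmic firing. NRSF is a repressor that recruits chromatin-modifying complexes to a DNA element known as RE1 or NRSE and is known for silencing neuronal genes in other cells.

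The mouse data are 1 list of 2357 peaks, each 400 bp wide, tied by the labels to both immunoprecipitated samples. The list gives positions on mm10, the build of all coordinates below, and no score, read count or value per replicate. No replicate error, depth or statistical test is therefore possible for a single gene, and every comparison is a description. Genes were assigned a peak if its midpoint fell between the annotated gene ends or no more than 10 kb beyond them. A peak near a gene shows where NRSF was found and not which gene it acts on.

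The bases under the peaks are not shown, as a genome was not used. Sequence came from RefSeq start-site windows on GRCm38.p6, from 250 bases before to 50 bases after an annotated start. Of the 10 pore genes, 7 had 10 such windows in all. Cacna1a, Cacna1g and Cacna1h had none, so no strand, start distance or search for the element is given for them. Of those shown, Cacna1b has the peak closest to a listed start, and Cacna1i has a peak on either side of its start. Cacna1c has no peak within 10 kb and holds the right arm of the element with 1 mismatch, as do 11.8% of all windows. The window of Syp, a neighbour of Cacna1f, overlaps a peak. Each window is written 5′ to 3′ in the direction of transcription. Capitals mark the 50 bases from the start on in Cacna1b, a match to the right arm of the element with 1 mismatch in Cacna1i and Cacna1c, and the 75 bases that lie inside the peak in Syp. The windows are chr2:24763103-24763402 on the minus strand, chr15:80286988-80287287 on the plus strand, chr6:119196360-119196659 on the minus strand and chrX:7638330-7638629 on the plus strand.
Cacna1b: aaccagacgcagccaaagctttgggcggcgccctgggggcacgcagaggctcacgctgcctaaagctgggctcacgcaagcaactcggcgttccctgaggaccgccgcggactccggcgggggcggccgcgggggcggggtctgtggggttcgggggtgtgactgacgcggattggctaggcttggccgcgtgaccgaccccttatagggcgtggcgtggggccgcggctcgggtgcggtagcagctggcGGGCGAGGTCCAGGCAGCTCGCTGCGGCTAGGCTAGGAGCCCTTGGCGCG
Cacna1i: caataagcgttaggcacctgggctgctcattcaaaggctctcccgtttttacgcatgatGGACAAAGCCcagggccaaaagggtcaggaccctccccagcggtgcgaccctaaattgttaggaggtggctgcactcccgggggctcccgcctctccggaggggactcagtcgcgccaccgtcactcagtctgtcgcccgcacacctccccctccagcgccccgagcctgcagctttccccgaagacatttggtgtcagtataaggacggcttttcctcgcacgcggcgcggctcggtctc
Cacna1c: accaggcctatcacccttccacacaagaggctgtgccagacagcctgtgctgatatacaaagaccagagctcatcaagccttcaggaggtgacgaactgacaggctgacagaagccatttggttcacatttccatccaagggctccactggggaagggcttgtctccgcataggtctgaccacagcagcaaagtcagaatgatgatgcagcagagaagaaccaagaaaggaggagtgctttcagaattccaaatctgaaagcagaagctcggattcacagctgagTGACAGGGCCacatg
Syp: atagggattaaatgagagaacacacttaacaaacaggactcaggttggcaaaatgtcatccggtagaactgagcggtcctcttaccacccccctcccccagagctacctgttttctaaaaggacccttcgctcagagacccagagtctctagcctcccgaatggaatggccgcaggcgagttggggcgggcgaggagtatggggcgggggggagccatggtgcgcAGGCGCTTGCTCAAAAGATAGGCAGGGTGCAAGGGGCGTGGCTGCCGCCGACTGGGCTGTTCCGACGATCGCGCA

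The windows were searched on both strands for the left arm of the canonical element, TTCAGCACC, and for its right arm, GGACAG followed by any base and then GCC. None of the 10 pore gene windows held either arm exactly, against 0.371% and 0.521% of all 32851 windows. With 1 mismatch allowed, the left arm was found in none of the 10 windows, against 8.25% of all windows. The right arm with 1 mismatch was found in 2 of the 10, against 11.8% of all windows. These 2 matches were GGACAAAGCC, which begins 191 bases before the start of Cacna1i, and TGACAGGGCC, which begins 35 bases after the start base of the uppermost Cacna1c start. The whole element, both arms separated by any pair of bases, was exact in none of the 10 and in 1 of the 32851. Of the 145 windows in the genome that overlapped a peak, 17 held the exact left arm (11.7%) and 8 the exact right arm (5.52%). None of those 145 windows belonged to a pore gene. In the Syp window printed above, the best match to either arm had 3 mismatches. That window holds only 75 bases of the 400 bp peak, and the rest of the peak was not searched. A missing match says only that these letters are not in these windows.

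NRSF peaks lay at 6 of the 10 pore subunit genes, against 7.49% of all protein-coding genes. The 6 were Cacna1a, Cacna1b, Cacna1d, Cacna1f, Cacna1h and Cacna1i, which together had 9 distinct peaks. A midpoint fell inside the span of 5 of the 10 genes, against 4.43% of all protein-coding genes and 15.9% of those of 100 kb or more. The exception among the 6 was Cacna1f, whose peak lay beyond its span. There were 2 pore genes with more than 1 peak, Cacna1a and Cacna1i, against 1.01% of all protein-coding genes. Both are longer than 100 kb, and of the 2429 protein-coding genes of 100 kb or more, 103 had more than 1 peak. None of the 10 had a midpoint 1 kb or less from an annotated end, against 1.58% of all protein-coding genes. Within 10 kb of an end, 4 of the 10 had a peak, against 5.63%. When each peak went only to the protein-coding gene with the nearest end, at any distance, 3 of the 10 had one, Cacna1a, Cacna1b and Cacna1i, against 8.49% of all protein-coding genes. Of the 9 peaks, 7 lay inside a pore gene span and the others lay beyond an end of Cacna1f and of Cacna1i, as the gene map shows.

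**Figure D1:**
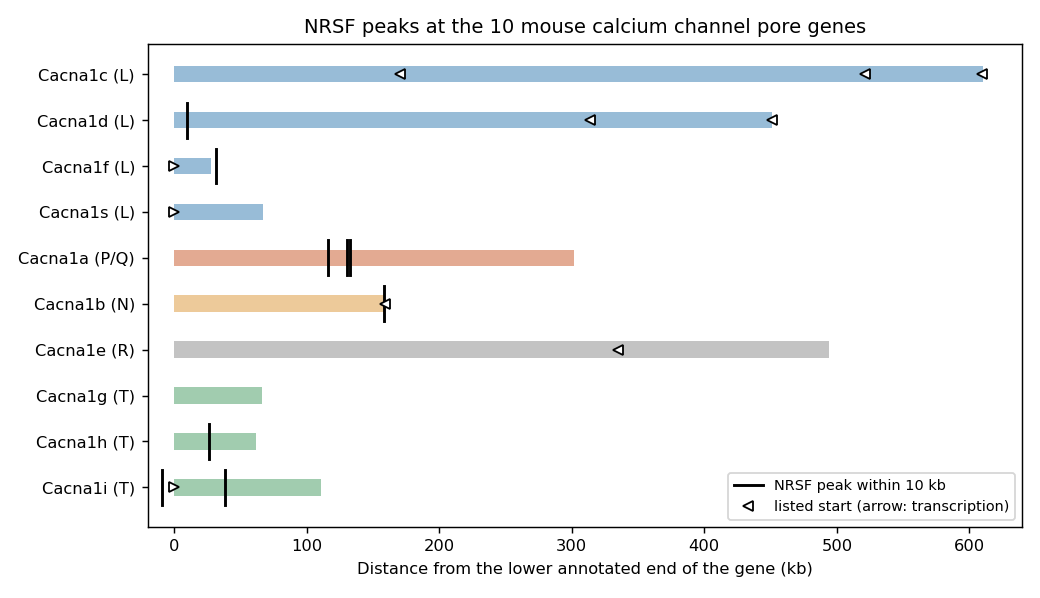
Each bar is the annotated span of a pore subunit gene in kb from its lower chromosomal end, coloured by channel type; black lines are midpoints of NRSF peaks within 10 kb, and arrowheads are listed start sites pointing the way of transcription. Cacna1a has 3 peaks inside its span, Cacna1b has its peak beside its start, and Cacna1c, Cacna1e, Cacna1g and Cacna1s have none.

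Cacna1a and Cacna1b, the pores of the P/Q and N type channels that trigger fast transmitter release, both had peaks inside their spans, in different places. Cacna1a, at 84338631 to 84640251 on chromosome 8, had 3 peaks, reached or passed by 0.247% of all protein-coding genes, whose median span is 17.1 kb. The 3 peaks lay at 84454560 to 84454960, at 84469085 to 84469485 and at 84471275 to 84471675. Their midpoints stood 14525 and 2190 bp apart, all within 16.7 kb of a span of 302 kb. They fell at 38.5%, 43.3% and 44.0% of the span from its lower end, so all 3 were deep in the gene, and the closest to an end was 116 kb from it. The closest other protein-coding gene to any of the 3 peaks was 184 kb away. Exons were not annotated in the table used, so whether these peaks lie in exons or introns was not examined.

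Cacna1b, at 24603860 to 24763200 on chromosome 2, had 1 peak at 24761915 to 24762315. Its midpoint was 1085 bp inside the upper end of the span and 1037 bp downstream of the listed start, whose window is printed above. It was the closest peak to a listed start among the 7 pore genes with one, and the only one within 2 kb, against 1.84% of the 17492 protein-coding genes with a listed start. The next peak on the chromosome was 273 kb away, and the closest other protein-coding gene, Ehmt1, was 28.7 kb away.

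Cacna1e, the pore of the R type channel and the last of the Cav2 genes, had no peak. Its span of 494 kb on chromosome 1, from 154390806 to 154884785, held none, and the closest peak, at 155461665 to 155462065, was 577 kb beyond its upper end. Of all protein-coding genes, 32.5% were at least this far from a peak. Cacna1e is 1.64 times as long as Cacna1a. Of all protein-coding genes of 400 kb or more, 34.4% had a peak, so having none is common at this length. The Cav2 genes had 3 peaks in Cacna1a, 1 in Cacna1b and none in Cacna1e.

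Of the 4 L type genes, 2 had a peak within 10 kb, and in both cases an end of another gene lay closer to the peak than the nearer end of the channel gene. Cacna1d encodes a pore of neurons, cardiac pacemaker cells and endocrine cells. It spans 30039941 to 30491156 on chromosome 14 and had 1 peak at 30049335 to 30049735. That midpoint was 9594 bp inside the lower end, at 2.13% of the span, which is the end away from both listed starts. The closer of those starts was 304 kb away. Chdh, which encodes choline dehydrogenase, overlaps the lower end of Cacna1d by 528 bp and had its own end 9067 bp from the same peak.

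Cacna1f, whose channel works in photoreceptor synapses of the retina, spans 7607103 to 7635196 on chromosome X. Its peak, at 7638555 to 7638955, lay 3559 bp beyond its upper end, downstream of the gene and 31.7 kb from its start. The midpoint lay 175 bp inside Syp, which encodes the synaptic vesicle protein synaptophysin. The peak covers 75 bases of the Syp start window printed above. Without peaks closer to an end of a gene lying wholly outside the channel gene, which removes Cacna1f, 5 of the 10 pore genes had a peak, against 6.19% of all protein-coding genes. This alternative was chosen after the values were seen.

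Cacna1c and Cacna1s had no peak within reach. Cacna1c, the pore of the main L type channel of heart, smooth muscle and brain, is the longest of the 10 genes at 610 kb, from 118587240 to 119197384 on chromosome 6. Its closest peak, at 119233045 to 119233445, was 35.9 kb beyond its upper end and 3279 bp outside Cacna2d4, an auxiliary calcium channel subunit gene that lies next to it. The 3 listed starts of Cacna1c were 36836, 124750 and 475271 bp from their closest peaks. Cacna1s encodes the voltage sensor of skeletal muscle contraction and spans 136052806 to 136119822 on chromosome 1. Its closest peak was 418 kb away, inside Nav1, a neuron navigator gene and not a sodium channel. In all, 41.2% of protein-coding genes were at least as far from a peak as Cacna1s.

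Among the T type genes, 2 of 3 had a peak. Cacna1h, whose channel is known in sensory neurons, spans 25374285 to 25436334 on chromosome 17 and had 1 peak at 25400445 to 25400845. The midpoint was 26.4 kb from the lower end, at 42.5% of the span. At 62.0 kb Cacna1h was the shortest gene with a peak inside, so it had the highest peak density of the 10, with 1.61 peaks per 100 kb. That value rests on 1 peak. Tpsg1, a tryptase gene, had its end 26203 bp from the same midpoint, slightly closer than the end of Cacna1h.

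Cacna1i, the brain-enriched T type pore, spans 80287238 to 80398292 on chromosome 15 and had 2 peaks. The first, at 80277630 to 80278030, lay 9408 bp upstream of its start and close to the 10 kb limit. The second, at 80325205 to 80325605, lay inside the gene, 38.2 kb downstream of the start. The midpoints were 47.6 kb apart with the start between them. Cacna1g, a T type pore of thalamic and cerebellar neurons, had none. It spans 94408391 to 94474400 on chromosome 11, and its closest peak was 411 kb away, inside Spag9 and 1189 bp from an end of that gene.

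Set side by side, a peak within 10 kb was found at 2 of 4 L type genes, at the P/Q type gene, at the N type gene, at none of 1 R type gene and at 2 of 3 T type genes. The P/Q, N and R classes have 1 gene each and no spread, so no difference between types was tested. Counting only peaks inside the span, the L type genes had 1 peak in 1156 kb, the Cav2 genes together 4 in 955 kb and the T type genes 2 in 239 kb. These amount to 0.0865, 0.419 and 0.836 peaks per 100 kb. Within the Cav2 family the density was 0.995 per 100 kb for the P/Q type gene and 0.628 for the N type gene, and the R type gene had no peak, so the P/Q value was above that of the T type genes together. Over the 10 genes the density was 0.298 per 100 kb, against 0.114 over all protein-coding genes and 0.0867 over those of 100 kb or more. The L type density rests on a single peak, in Cacna1d, and the 4 L type spans run from 28.1 to 610 kb. The T type density rests on 2 peaks. Of the 4 Cav2 peaks, the 3 in Cacna1a lie within 16.7 kb of each other.

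Pore genes are long, with a median span of 135 kb against 17.1 kb for all protein-coding genes, and long genes meet a peak more often. Of the 3 pore genes of 400 kb or more, 1 had a peak, Cacna1d, against 34.4% of all protein-coding genes of that length. Cacna1a, the only one between 200 and 400 kb, had a peak, against 19.7%. Both genes between 100 and 200 kb, Cacna1b and Cacna1i, had one, against 13.3%. Of the 3 genes between 50 and 100 kb, 1 had a peak, Cacna1h, against 10.4%, and Cacna1f, between 25 and 50 kb, had one, against 7.04%. No pore gene was shorter than 25 kb, a class in which 5.12% of all protein-coding genes had a peak. In the longest class the share of pore genes was thus close to that of all genes, whereas the genes from 100 to 400 kb all had peaks. The classes hold 1 to 3 pore genes each.

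**Figure D2:**
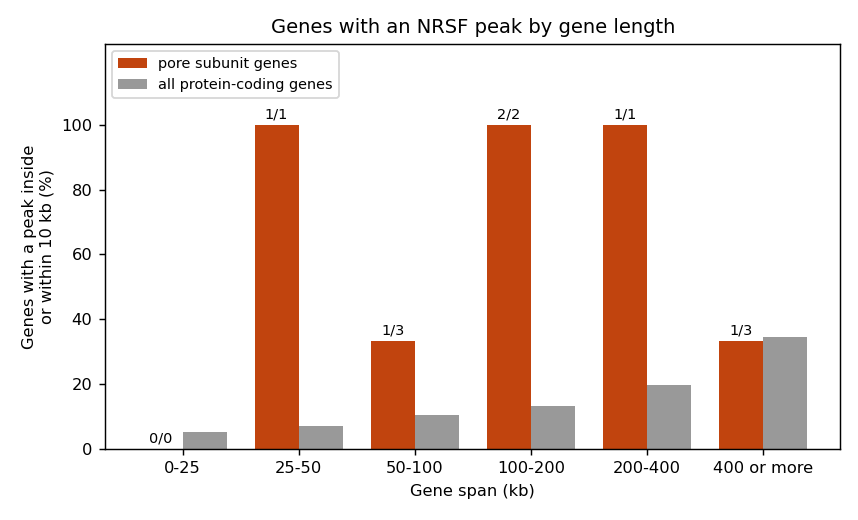
Bars give the percentage of genes with an NRSF peak inside the span or within 10 kb in each class of gene span in kb, for pore subunit genes (orange, with the number of genes above) and all protein-coding genes (grey). The share of all protein-coding genes climbs with length to 34.4%, and 1 of the 3 pore genes of 400 kb or more has a peak.

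The distances fell into separate ranges. For 5 genes the closest peak was inside the span, for Cacna1f it was 3.56 kb away and for Cacna1c 35.9 kb. For Cacna1g, Cacna1s and Cacna1e it was 411 to 577 kb away, and no pore gene lay between these ranges. A closest peak over 400 kb away was found for 42.2% of all protein-coding genes, a common distance in this list. The closest peak was at a median of 1.78 kb for the 10 pore genes, against 298 kb for all protein-coding genes. Inside the span or within 500 kb of it, pore genes had a median of 2 peaks, against a median of 1 for all protein-coding genes. The count ran from 0 at Cacna1e to 5 at Cacna1a and at Cacna1i. It includes the peaks already described, and the stretch counted is wider for longer genes.

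**Figure D3:**
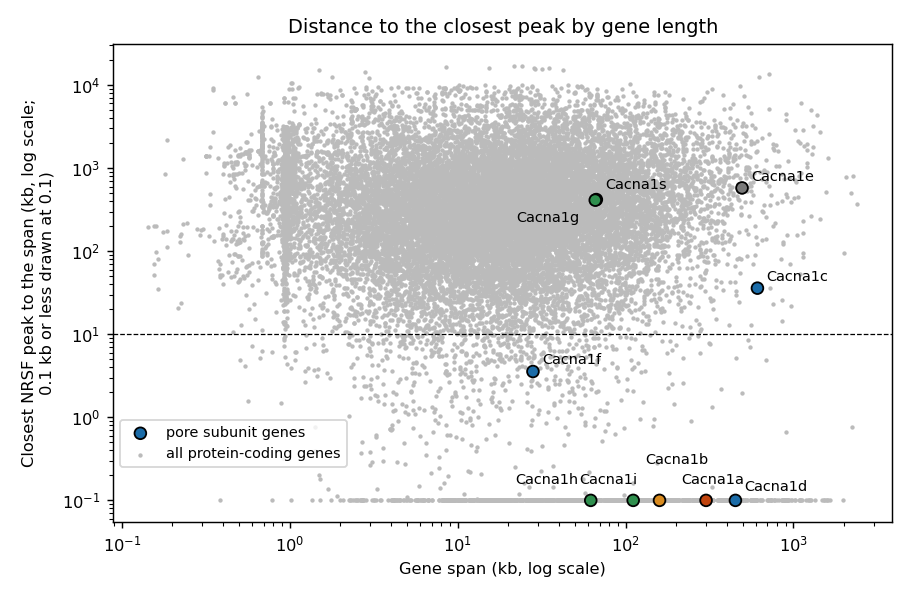
Each point is a gene, by its span in kb and the distance from the span to the closest NRSF peak in kb, both on log scales; distances of 0.1 kb or less are drawn at 0.1, the dashed line marks 10 kb, pore genes are coloured by channel type as in the gene map and all protein-coding genes are grey. Cacna1e, Cacna1g and Cacna1s sit amid the grey points at 411 to 577 kb, and 5 pore genes lie on the bottom line with a peak inside.

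The auxiliary subunits accompany the pore and set its surface level and gating. The 16 auxiliary genes had a median span of 80.0 kb. Of them, 7 had a peak within 10 kb (43.8%), against 7.49% of all protein-coding genes and 10.4% of those of 50 to 100 kb. They were 3 of 4 alpha2delta genes, which raise the number of channels at the surface, none of 4 beta genes, which bind the pore inside the cell, and 4 of 8 gamma genes, several of which regulate AMPA receptors rather than calcium channels. Cacna2d2 had 1 peak 42.3 kb from an end and Cacna2d3 had 1 peak 65.6 kb from an end, both inside the gene, whereas Cacna2d4 had 1 peak inside and the 1 it shares with the surroundings of Cacna1c. Of the gamma genes, Cacng2 had 4 peaks, the closest 335 bp inside an end, Cacng3 had 1 peak 749 bp outside, Cacng7 had 1 peak 3802 bp outside, and Cacng5 had 1 peak 5270 bp outside. Cacnb1, Cacnb2, Cacnb3 and Cacnb4 had their closest peaks 291, 173, 302 and 764 kb away.

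**Figure D4:**
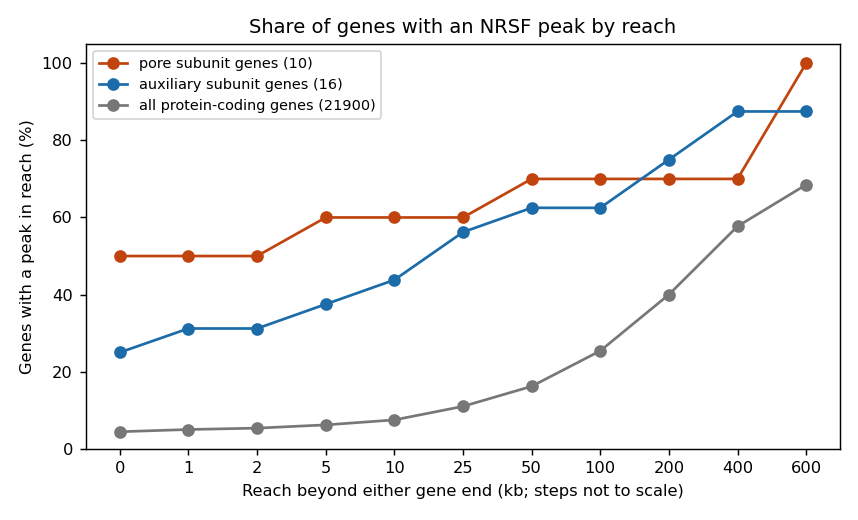
Lines give the percentage of genes with an NRSF peak inside the span or within the reach on the horizontal axis in kb (steps not to scale), for the 10 pore subunit genes, the 16 auxiliary subunit genes and all 21900 protein-coding genes. The share of pore genes is 5 of 10 inside the span, 6 of 10 at 10 kb and 7 of 10 from 50 to 400 kb, with all protein-coding genes at 4.43%, 7.49%, 16.2% and 57.7% at 0, 10, 50 and 400 kb.

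Pore genes of the related sodium channels, most of which carry the upstroke of the action potential, had a peak in 3 of 10 cases. That compares with 7.49% of all protein-coding genes and 18.1% of those of 100 kb or more. The median span of the 10 sodium channel genes was 111 kb. The Scn2a peak was 789 bp outside the gene, and that of Scn8a was 3442 bp inside. Scn10a had 2 peaks, the closer 12.4 kb inside an end. The difference from the 6 of 10 calcium channel pore genes was not tested. Among all other protein-coding genes, 31 had the same number of peaks as Cacna1a, 3. The closest to it in span were Tmem132c with 324 kb, Megf11 with 329 kb and Kcnj6, an inward rectifier potassium channel gene, with 253 kb. All 3 peaks of Tmem132c and of Megf11 lay inside the gene, as in Cacna1a, and 2 of the 3 peaks of Kcnj6 did. The measure of likeness was the number of peaks in 1 list and then the ratio of spans.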

How the data were processed

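NRSF ChIP-seq of RAW264.7 cells gave 1 deposited mouse list for 2 immunoprecipitated samples. Per the submitters' processing notes, Bowtie 0.12.8 and MACS 1.4.2 were used, with no role stated, and mm10 is among the builds named. How replicates were combined and which threshold was set is not stated. The authors deposited chromosome, start and end of each peak, with no score; whether positions count from 0 or 1 is not stated, so distances carry 1 base of uncertainty. Gene spans came from RefSeq GRCm38.p6, the assembly mm10 also denotes; start sites and strands came from the RefSeq start-site windows, in which 1685 of 1685 overlapping windows on opposite strands gave the same bases after reversal. Distances run from the peak midpoint.

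The members and lists were chosen with earlier results of these data known, so shares are set beside those of all 21900 protein-coding genes without a test. All 10 members are named; of the other lists, genes with a peak, at most 4 per subfamily by closeness to a gene end, except Cacnb1 to Cacnb4, named after their values were seen. The counting was tested on planted peaks. Python 3.11.15, numpy 2.4.6 and pandas 2.3.3 were used.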

Additional observations from a re-analysis of the deposited data

How the results depend on the processing

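Of 60 alternative values, 51 stayed within 1.5 times the main count and 9 did not. This tally does not measure stability. Many of the values belong to types of 1 gene, which can only be 0 or 1, and the reaches are nested. The fall from 6 to 4 pore genes when only annotated ends counted lies exactly at the limit and is among the 51. When each peak went only to the protein-coding gene with the nearest end, 3 of the 10 pore genes kept a peak (Cacna1a, Cacna1b and Cacna1i), with 0 L type and 1 T type genes, since the peaks at Cacna1d, Cacna1f and Cacna1h went to Chdh, Syp and Tpsg1. With only annotated ends within 10 kb, 4 peaks counted, with 0 P/Q type and 1 T type genes, since the peaks deep inside Cacna1a, Cacna1h and Cacna1i no longer counted. With a reach of 0 or of 1 kb, 1 L type gene had a peak, since the peak beyond Cacna1f dropped out. The right arm of the element was in 0 member windows exactly and in 2 with 1 mismatch. Over these settings the number of pore genes with a peak ran between 3 and 7, the highest with a reach of 50 kb, which takes in Cacna1c and at which 16.2% of all protein-coding genes had a peak. Cacna1e had no peak under any of them. No alternative could leave out a replicate, because the list holds no value per replicate. No paired analysis was possible because the peaks are 1 list for both samples.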
